A study of Arabidopsis thaliana with 12 samples.

Results

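The genes for 4 enzymes that attach sugars to flavonols were followed in leaves of Arabidopsis thaliana, the thale cress. They were chosen by name, with earlier results of these data known: UGT78D1 (AT1G30530), UGT78D2 (AT5G17050), UGT78D3 (AT5G17030) and AT1G06000. Each has 1 probe set, so they make up 4 of the 22746 probe sets tested. The study measured RNA of rosette leaves from 6-week-old plants, grown in soil under days of 16 h at 22 °C and 60% humidity, on Affymetrix arrays. The 12 arrays cover 4 genotypes with 3 arrays each: fls1-3, a mutant named for the flavonol synthase gene FLS1; OE1 and OE2, a pair of lines that overexpress TaFLS, a flavonol synthase gene; and Col-0, the wild type. The labels give a raised flavonol content for fls1-3 and for OE2 and a lowered one for OE1, so they differ between 2 lines that overexpress the same gene. No probe set names FLS1 in the annotation used here, so the genotype labels could not be checked against its level. The promoter of the transgene, and whether an array holds 1 plant or a pool, are not given in the sources used here. The titles call the arrays of a genotype biological replicates, and it is their spread that the p-values reflect.

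Flavonols such as kaempferol and quercetin are made from dihydroflavonols by flavonol synthase and are stored in leaves almost wholly as glycosides. UDP-glycosyltransferases carry out this step by moving a sugar from a UDP-sugar to a hydroxyl group of the flavonol. UGT78D2 adds glucose at the 3-O position and also acts on anthocyanidins, UGT78D1 adds rhamnose at the 3-O position, UGT78D3 adds arabinose at the 3-O position, and the enzyme of AT1G06000 adds rhamnose at the 7-O position. Leaf flavonols of Arabidopsis usually carry sugars at both positions, so the last enzyme works on the products of the other 3. UGT78D3 and UGT78D2 lie near each other on chromosome 5, with the single gene AT5G17040 between them in the reference annotation, while UGT78D1 and AT1G06000 are separate genes of chromosome 1.

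Values are log2 MAS5 signals, a scale on which a difference of 1 is a doubling. The array medians lay between 7.09 and 7.55, and 0.487% to 1.47% of values on an array stood at the floor of 0. The 3' signal of the GAPDH control transcript exceeded the 5' signal by 1.27 ± 0.39 log2 units in fls1-3, 2.27 ± 0.17 in OE1, 1.42 ± 0.25 in OE2 and 1.30 ± 0.10 in Col-0 (SD, n = 3 each), so this sign of RNA or labelling quality moves with OE1 in every comparison that holds that line, and its part in the results was not tested. Of 11 markers of leaf, root, flower and seed written for a check of the tissue, 2 could be matched to a probe set, which leaves the tissue label unchecked here.

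None of the 4 genes differed between genotypes past an adjusted p of 0.05 by limma, a linear model fitted to all probe sets, in any of the 6 pairwise comparisons or in the test for any difference among the 4 genotypes. The closest was UGT78D2, which had its 3 lowest values on the 3 fls1-3 arrays. UGT78D1 and AT1G06000 had signals that overlapped among the genotypes, and they varied together from array to array, most of all within fls1-3. The largest difference of AT1G06000 from Col-0, 0.52 in fls1-3, did not pass. UGT78D3 had signals near the floor of the arrays in every genotype.

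Of the 3-O-glycosyltransferases, UGT78D2 had log2 signals of 8.55, 8.36 and 8.48 in fls1-3, of 9.22, 8.85 and 9.42 in OE1, of 8.73, 8.60 and 9.27 in OE2, and of 8.66, 9.21 and 9.27 in Col-0. The fls1-3 arrays lay below all 9 others, while the OE1, OE2 and Col-0 arrays overlapped one another. This separation was noted after the values were seen, and 0.752% of all probe sets have their 3 fls1-3 values below the 9 others. It holds for the signals as deposited. With the array median subtracted, fls1-3 replicate 3 stood at 1.36, above OE2 replicate 2 at 1.20. The group means were 8.46 ± 0.099 in fls1-3, 9.17 ± 0.29 in OE1, 8.87 ± 0.36 in OE2 and 9.05 ± 0.33 in Col-0 (SD, n = 3 each).

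The difference of UGT78D2 between fls1-3 and Col-0 was -0.58 ± 0.22 log2 units (SE, 95% interval -1.07 to -0.094), which leaves 0.668 of the Col-0 signal. It did not pass (limma adjusted p = 0.358, unadjusted p = 0.0233). Between fls1-3 and OE1 it was -0.70 ± 0.22 (95% interval -1.19 to -0.21; limma adjusted p = 0.167), or 1.63-fold lower. Between fls1-3 and OE2 it was -0.40 ± 0.22 (95% interval -0.89 to 0.086; limma adjusted p = 0.887). With array quality weights UGT78D2 passed in 1 of these comparisons, with a difference of -0.90 between fls1-3 and OE1 (limma adjusted p = 0.00734), in a fit that called 3783 probe sets in all. The sign against Col-0 was the same in fls1-3 under all 22 alternatives, between -0.77 and -0.47.

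In the overexpression lines UGT78D2 stood closer to the wild type. OE1 differed from Col-0 by 0.12 ± 0.22 (95% interval -0.37 to 0.61; limma adjusted p = 0.844), a sign that turned with median-centred arrays, with the array median in the model, without OE1 replicate 3 and without Col-0 replicate 1. OE2 differed from Col-0 by -0.18 ± 0.22 (95% interval -0.67 to 0.31; limma adjusted p = 0.815). The means in rising order were those of fls1-3, OE2, Col-0 and OE1, and no neighbours in that order differed past the threshold.

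UGT78D1, the 3-O-rhamnosyltransferase gene, had log2 signals of 10.71, 9.45 and 8.24 in fls1-3, of 9.91, 9.63 and 9.73 in OE1, of 9.60, 9.49 and 9.87 in OE2, and of 9.17, 9.32 and 9.67 in Col-0. Its highest and its lowest array of the 12 were both fls1-3 arrays, so that genotype overlapped all the others. The group means were 9.47 ± 1.23 in fls1-3, 9.75 ± 0.14 in OE1, 9.65 ± 0.20 in OE2 and 9.39 ± 0.25 in Col-0 (SD, n = 3 each). The fls1-3 arrays spanned 2.47 log2 units, or 5.53-fold, against 1.22-fold in OE1, 1.31-fold in OE2 and 1.41-fold in Col-0.

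This spread set the precision of every comparison of UGT78D1, since the fit shares 1 estimate among the genotypes. The differences from Col-0 were 0.081 ± 0.44 in fls1-3, 0.37 ± 0.44 in OE1 and 0.27 ± 0.44 in OE2 (SE; limma adjusted p = 0.983, 0.749 and 0.866). Their 95% intervals ran from -0.87 to 1.03 in fls1-3, from -0.59 to 1.32 in OE1 and from -0.69 to 1.22 in OE2. Changes of up to a doubling in fls1-3, and of more than that in the overexpression lines, lie inside these intervals. Without fls1-3 replicate 1 the difference in fls1-3 was -0.54, and without replicate 3 it was 0.69, so its direction rests on which array is kept. It also turned without Col-0 replicate 1 (-0.025) and with the array median in the model (-0.067). With the array median in the model the differences also turned in OE1 (-0.24) and in OE2 (-0.30). The means as deposited were, in rising order, those of Col-0, fls1-3, OE2 and OE1.

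UGT78D3, the 3-O-arabinosyltransferase gene, had the weakest signals. Its log2 values were 0.58, 1.73 and 1.80 in fls1-3, 3.97, 1.74 and 2.82 in OE1, 2.49, 0.85 and 4.35 in OE2, and 1.89, 1.23 and 1.85 in Col-0. They lay below the array median on 12 of 12 arrays, between the 3.31 and 19.7 percentiles of their arrays, and the genotypes overlapped. The means were 1.37 ± 0.69 in fls1-3, 2.85 ± 1.12 in OE1, 2.56 ± 1.75 in OE2 and 1.65 ± 0.37 in Col-0 (SD, n = 3 each). Differences from Col-0 of -0.28 ± 0.95, 1.19 ± 0.95 and 0.91 ± 0.95 in fls1-3, OE1 and OE2 (SE) did not pass (limma adjusted p = 0.971, 0.621 and 0.767). The 95% interval in OE1 ran from -0.87 to 3.25, and with 64 added to the linear signal the OE1 value was 0.11. The sign in fls1-3 turned without fls1-3 replicate 1 (0.11) and with array quality weights (0.14).

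AT1G06000, the 7-O-rhamnosyltransferase gene, had log2 signals of 10.62, 9.89 and 9.24 in fls1-3, of 9.93, 9.27 and 9.55 in OE1, of 9.53, 9.49 and 9.51 in OE2, and of 9.22, 9.25 and 9.72 in Col-0. The fls1-3 arrays reached highest and overlapped the others, and the OE2 arrays lay within 0.035 log2 units of one another. The means were 9.92 ± 0.69 in fls1-3, 9.58 ± 0.33 in OE1, 9.51 ± 0.017 in OE2 and 9.39 ± 0.28 in Col-0 (SD, n = 3 each).

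The difference of AT1G06000 from Col-0 was 0.52 ± 0.29 in fls1-3 (SE, 95% interval -0.11 to 1.15; limma adjusted p = 0.617). In OE1 it was 0.19 ± 0.29 (95% interval -0.44 to 0.82; limma adjusted p = 0.807), and in OE2 it was 0.12 ± 0.29 (95% interval -0.51 to 0.75; limma adjusted p = 0.920). Both signs in the overexpression lines turned with the array median in the model, and that of OE2 also with median-centred arrays. Without fls1-3 replicate 1 the fls1-3 value was 0.17. Between fls1-3 and OE1 the difference of 0.33 ± 0.29 (limma adjusted p = 0.615) became 0.65 with the array median in the model and then passed (limma adjusted p = 0.0445). Without fls1-3 replicate 1 it was -0.020. Over all probe sets, 126 passed between fls1-3 and OE1 in the main fit, and between 17 and 3783 under the alternatives. The count of the fit with the array median is not given apart, so the call of AT1G06000 stands without its own background. The means of AT1G06000 in rising order were those of Col-0, OE2, OE1 and fls1-3.

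**Figure D1:**
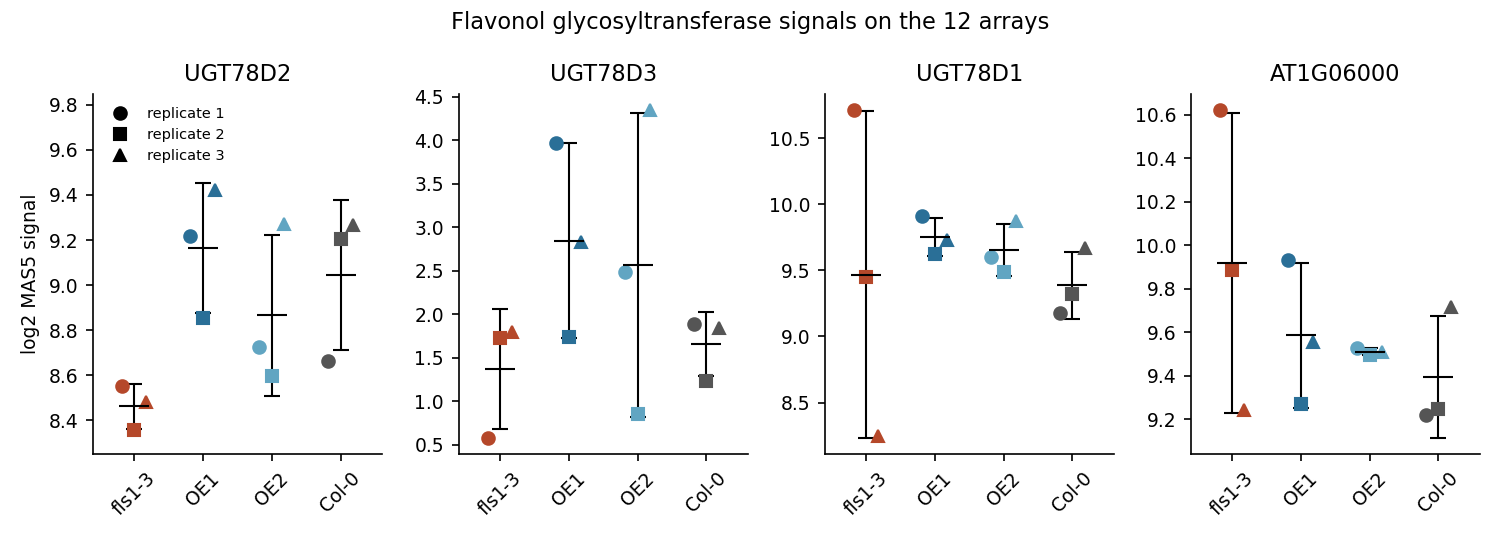
Log2 MAS5 signal (vertical axes, each with its own range) of the 4 genes in fls1-3, OE1, OE2 and Col-0, with a marker shape for each replicate number and black bars for the mean ± SD of 3 arrays. UGT78D2 is lowest on the 3 fls1-3 arrays, and UGT78D1 spans 8.24 to 10.71 within fls1-3 alone.

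**Figure D2:**
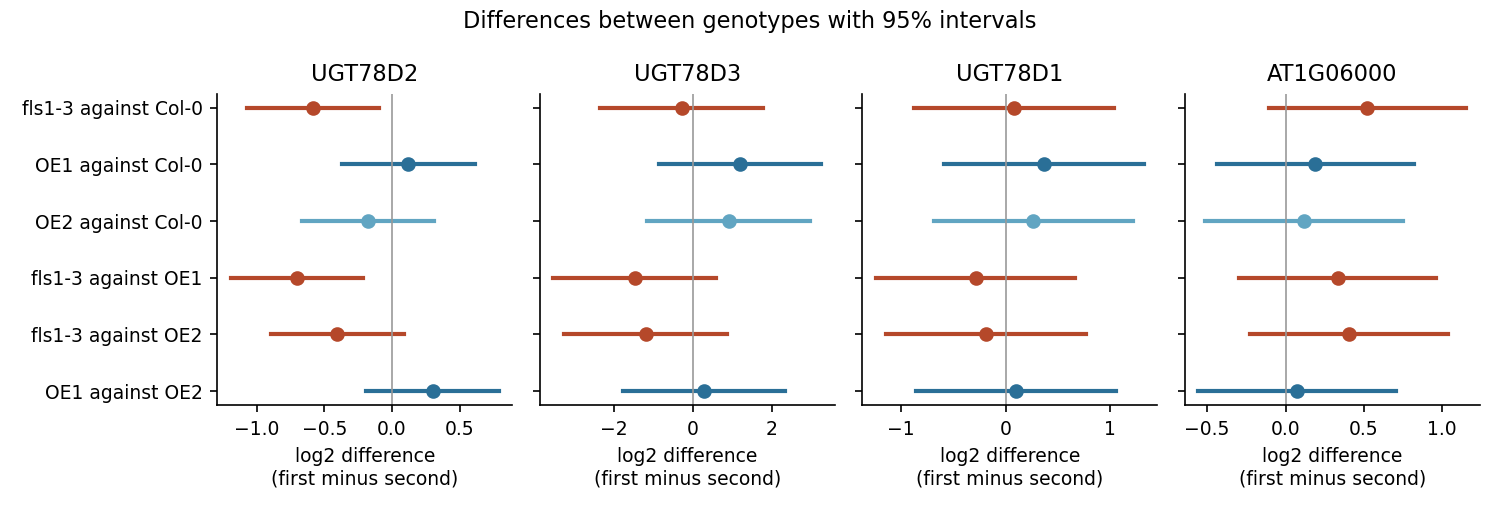
Log2 differences of the 4 genes in the 6 comparisons, first-named minus second-named genotype (horizontal axes, each with its own range), with 95% intervals from the limma fit before adjustment for multiple tests. Of the 24 intervals, those of UGT78D2 in fls1-3 against Col-0 and against OE1 leave out 0, and neither passed after adjustment.

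The counts over all probe sets give the background for these tests. In fls1-3 against Col-0, 0 of the 4 genes passed by limma beside 1.2% of probe sets, and 1 had an unadjusted p under 0.05 beside 10.2%. In OE1 against Col-0, 0 of the 4 passed beside 0% of probe sets, and 0 had an unadjusted p under 0.05 beside 10.7%. In OE2 against Col-0, 0 of the 4 passed beside 0.989%, and 0 had an unadjusted p under 0.05 beside 11.3%. In fls1-3 against OE1, 0 of the 4 passed beside 0.554%, and 1 had an unadjusted p under 0.05 beside 15.7%. In fls1-3 against OE2, 0 of the 4 passed beside 0.022%, and 0 had an unadjusted p under 0.05 beside 5.44%. In OE1 against OE2, 0 of the 4 passed beside 0.0264%, and 0 had an unadjusted p under 0.05 beside 8.43%. In the test of any difference among the 4 genotypes, 0 of the 4 passed beside 1.03%, and 1 had an unadjusted p under 0.05 beside 13.2%. The gene with an unadjusted p under 0.05 was UGT78D2 each time, at 0.0233 in fls1-3 against Col-0, 0.00859 in fls1-3 against OE1 and 0.0412 in the test of any difference. UGT78D2 was also the 1 gene of the 4 whose fls1-3 arrays all lay below those of another genotype, an arrangement that 5.89% of probe sets show against Col-0, 11.8% against OE1 and 6.96% against OE2.

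The arrays of one genotype were then compared with each other, since UGT78D1 and AT1G06000 ranged widely between fls1-3 arrays. UGT78D1 was 2.47 log2 units higher on fls1-3 replicate 1 than on replicate 3, and AT1G06000 was 1.38 higher on the same array. UGT78D2 differed by 0.072 between these arrays, and UGT78D3, near the floor, by -1.22. Of 2638 probe sets with a mean within 0.5 log2 units of that of UGT78D1, 0.796% had a fls1-3 SD at least as large, and the median SD was 0.25. For AT1G06000 the share was 7.19% of 2616 probe sets. In OE1 and Col-0 the spread of UGT78D1 was no larger than the median of such probe sets, at 0.14 against 0.20 in OE1 and 0.25 against 0.28 in Col-0, and in OE2 it was 0.20 against 0.14.

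After the mean of each genotype was taken out, the deviations of UGT78D1 and AT1G06000 had a Pearson correlation of 0.92 over the 12 arrays. Within the 9 arrays other than fls1-3 it was 0.76. These are descriptions from arrays that share a scaling, and they were looked at after the values were seen. Of the 11372 other probe sets of at least median mean signal, 42, or 0.369%, followed UGT78D1 at least as closely as AT1G06000 did. Seen from AT1G06000, 214 probe sets, or 1.88%, followed it at least as closely as UGT78D1 did. By the same measure UGT78D1 and UGT78D2 had a correlation of 0.28 over the 12 arrays and of 0.79 over the 9 arrays other than fls1-3. UGT78D1 and UGT78D3 had -0.086 over the 12 and 0.69 over the 9, and UGT78D2 and AT1G06000 had 0.30 and 0.46. Outside fls1-3, UGT78D1 thus followed UGT78D2 about as closely as AT1G06000, and the contrast between these pairs rests on the 3 fls1-3 arrays.

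The array median moved with these deviations. It was 7.51, 7.26 and 7.12 on fls1-3 replicates 1, 2 and 3, the same order as UGT78D1 and AT1G06000. The correlation of the deviations with that of the array median was 0.83 for UGT78D1, 0.92 for AT1G06000, 0.58 for UGT78D2 and 0.11 for UGT78D3, and 14.4%, 6.12%, 30.6% and 51.2% of the brighter probe sets reached at least these values. Between fls1-3 replicates 1 and 3 the array median differed by 0.39 log2 units, UGT78D1 by 2.47 and AT1G06000 by 1.38. With the array median in the model the residual SD was 0.38 for UGT78D1 and 0.17 for AT1G06000, against 0.64 and 0.41 without it. It was 0.25 for UGT78D2 and 1.18 for UGT78D3, against 0.29 and 1.11. The median over the brighter probe sets was 0.20 with it and 0.27 without it. What lies behind the link with the array median was not tested.

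Genes of the anthocyanin branch, which shares its precursors with the flavonols, moved with the same arrays, in a comparison chosen after the values were seen. Of 12 genes written for this list, 4 have a named probe set: DFR, for the enzyme that reduces dihydroflavonols, UGT75C1, an anthocyanin 5-O-glucosyltransferase gene, UGT79B1, whose enzyme adds xylose to anthocyanins, and 5MAT, an anthocyanin malonyltransferase gene. The mean log2 signal of these 4 was 6.97, 5.26 and 3.37 in fls1-3, 7.50, 3.91 and 7.73 in OE1, 6.60, 6.18 and 7.25 in OE2, and 3.26, 5.26 and 6.63 in Col-0. It varied by more than 3 log2 units within fls1-3, OE1 and Col-0. Of these 4 genes, 0 had a mean at or above the median mean signal of all probe sets. The lowest value was 1.58, of UGT79B1 on Col-0 replicate 1, and signals near the floor are unstable on this scale. The deviations of the mean of the 4 from the genotype means had a correlation of 0.70 with those of UGT78D1, 0.72 with UGT78D2, 0.81 with AT1G06000 and 0.24 with UGT78D3 over the 12 arrays, and of 0.89 with those of the array median. Of the brighter probe sets, 19.7%, 17.7%, 9.75% and 45.1% had correlations at least as high as the 4 genes in that order.

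**Figure D3:**
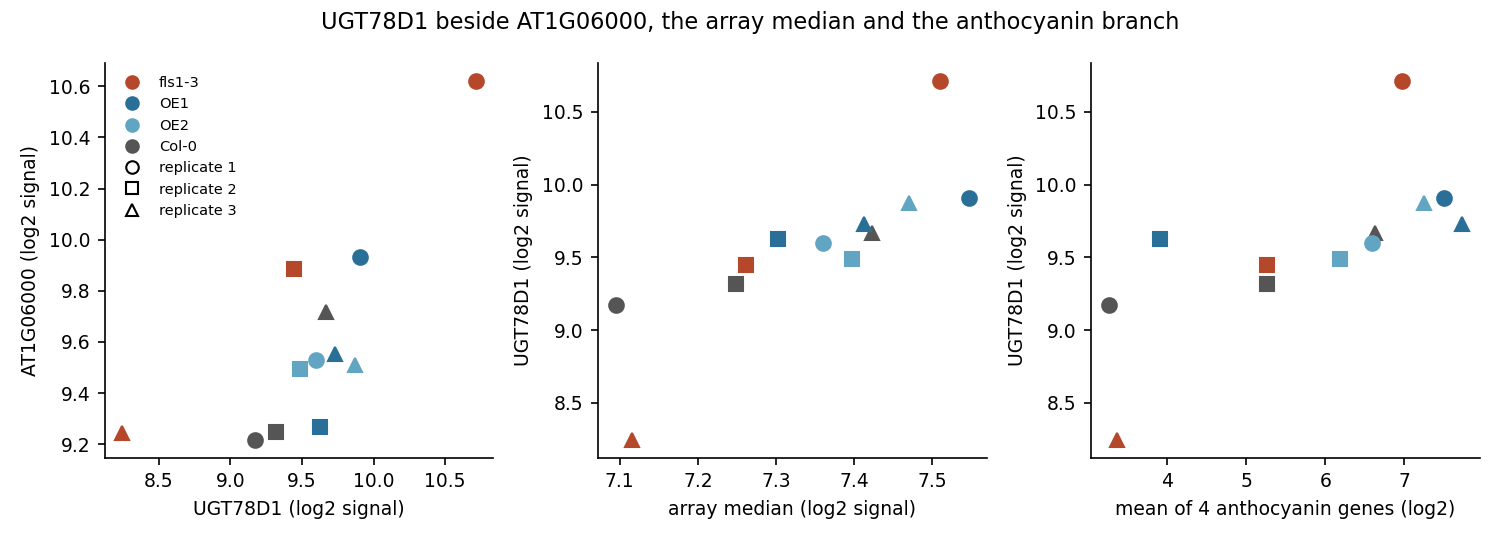
Log2 signal of AT1G06000 against that of UGT78D1 (left), and of UGT78D1 against the array median (middle) and against the mean log2 signal of 4 anthocyanin branch genes (right), with 1 point for each of the 12 arrays. Replicates 1 and 3 of fls1-3 form the upper and the lower end of UGT78D1, at 10.71 and 8.24.

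Against the wild type, 0 of the 4 measured anthocyanin branch genes passed in fls1-3, in OE1 or in OE2 by limma, and 0 had an unadjusted p under 0.05. Their median log2 difference from Col-0 was 0.087 in fls1-3, 1.41 in OE1 and 1.79 in OE2, beside -0.0039, 0.11 and 0.083 over all probe sets. UGT75C1 had differences of 0.36 ± 1.20, 1.78 ± 1.20 and 1.70 ± 1.20 in fls1-3, OE1 and OE2 (SE; limma adjusted p = 0.971, 0.579 and 0.639). 5MAT had -0.73 ± 0.83, 0.71 ± 0.83 and 0.50 ± 0.83 (limma adjusted p = 0.872, 0.744 and 0.867). With the array median in the model 5MAT stood at -0.37 in OE1 and -0.51 in OE2, and UGT75C1 at 0.025 in OE1 and 0.067 in OE2. Without fls1-3 replicate 3 the value of 5MAT in fls1-3 was 0.31. These errors are larger than those of UGT78D2, at 0.22, and the spread between arrays of a genotype covers the differences.

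Of the other flavonol genes written for comparison, few can be named on the arrays. In the list of flavonol backbone enzymes and their regulators 1 of 19 has a named probe set. It is CHIL, for a chalcone isomerase-like protein that aids flavonoid synthesis, with mean log2 signals of 7.04 in fls1-3, 7.36 in OE1, 7.49 in OE2 and 7.03 in Col-0. CHIL did not pass in any of the 6 comparisons, and the sign of its difference from Col-0 turned in each line with the array median in the model and without Col-0 replicate 1. BGLU15, a beta-glucosidase gene of flavonol glycoside breakdown, is the 1 named gene of 3 in its list, and had means of 6.87 in fls1-3, 5.80 in OE1, 6.95 in OE2 and 4.99 in Col-0. Its differences from Col-0 of 1.89 ± 1.23, 0.82 ± 1.23 and 1.96 ± 1.23 (SE) did not pass (limma adjusted p = 0.702, 0.806 and 0.588). Leaving out 1 array moved them to between 0.50 and 2.79 in fls1-3, -0.57 and 1.72 in OE1, and 0.57 and 2.86 in OE2, with the lowest value of BGLU15 in each line coming without Col-0 replicate 1. With the array median in the model BGLU15 stood at -1.02 in OE1. The list of UDP-sugar synthesis, which supplies the glucose, rhamnose and arabinose donors, has 0 of 10 genes matched and was not analysed here.

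The 47 other UDP-glycosyltransferases with a named probe set, enzymes of many acceptors besides flavonols, show how the family stood. In fls1-3 against Col-0, 1 of them was called higher and 0 lower, beside 1.2% of all probe sets called in either direction. At an unadjusted p under 0.05 there were 6 of the 47, beside 10.2%. The 47 had a median log2 difference of 0.16 and a range from -1.77 to 2.12. In OE1 against Col-0, 0 were called by limma, beside 0% of all probe sets, and 4 had an unadjusted p under 0.05, beside 10.7%. The 47 had a median of 0.15 and a range from -2.19 to 2.44. In OE2 against Col-0, 1 was called higher and 0 lower, beside 0.989% of all probe sets called in either direction. At an unadjusted p under 0.05 there were 6, beside 11.3%. The 47 had a median of -0.032 and a range from -1.24 to 2.88. Between the lines 0 of the 47 passed in each of the 3 comparisons by limma. Of all probe sets, 0.554% passed in fls1-3 against OE1, 0.022% in fls1-3 against OE2 and 0.0264% in OE1 against OE2. At an unadjusted p under 0.05 there were 5, 3 and 6 of the 47 in that order, beside 15.7%, 5.44% and 8.43% of all probe sets. With array quality weights UGT85A2 passed in fls1-3 against OE1 (0.62, limma adjusted p = 0.00919) and in OE1 against OE2 (-0.77, limma adjusted p = 0.0192), and UGT72B1 in fls1-3 against OE1 (0.70, limma adjusted p = 0.0261). Over all probe sets the weighted fit called 3783 in fls1-3 against OE1. Among the 18 of the 47 with at least median mean signal, the differences from Col-0 ran from -0.77 (UGT74D1) to 0.95 (UGT85A2) in fls1-3, with the next at -0.48 and 0.44. UGT78D2 at -0.58 and AT1G06000 at 0.52 would each stand second from its end of that list. In OE1 the 18 ran from -1.10 (UGT72B1) to 0.50 (UGT85A4) and in OE2 from -0.97 (UGT72B1) to 1.09 (UGT85A2), and the 3 brighter flavonol genes lay between these ends.

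The gene called in both was UGT85A2. It had log2 signals of 9.27, 8.98 and 8.73 in fls1-3, 8.54, 8.49 and 8.28 in OE1, 9.23, 9.01 and 9.17 in OE2, and 8.06, 8.21 and 7.87 in Col-0. Every array of the 3 lines lay above every Col-0 array, as in 1.21% of probe sets. UGT85A2 rose by 0.95 ± 0.17 in fls1-3 (SE; limma adjusted p = 0.0216) and by 1.09 ± 0.17 in OE2 (limma adjusted p = 0.0116), and stood at 0.39 ± 0.17 in OE1 (limma adjusted p = 0.467). These comparisons share the Col-0 arrays. The call in fls1-3 was lost without Col-0 replicate 2 or 3 or fls1-3 replicate 1 or 2, where the adjusted p was 0.0505, 0.0637, 0.0840 and 0.0810, and that in OE2 without OE2 replicate 1 or 3, at 0.0717 and 0.0611. It was also lost in fls1-3 without the intensity trend and with only the fls1-3 and Col-0 arrays fitted, at 0.0727 and 0.213.

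UGT72B1, whose enzyme glucosylates phenolic compounds such as monolignols, had the next smallest p of the family for any difference. Its differences from Col-0 were -0.48 ± 0.27 in fls1-3, -1.10 ± 0.27 in OE1 and -0.97 ± 0.27 in OE2 (SE; limma adjusted p = 0.625, 0.345 and 0.146). All 3 arrays of OE1, and all 3 of OE2, lay below all 3 Col-0 arrays, as did 5.33% and 7.98% of probe sets.

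**Figure D4:**
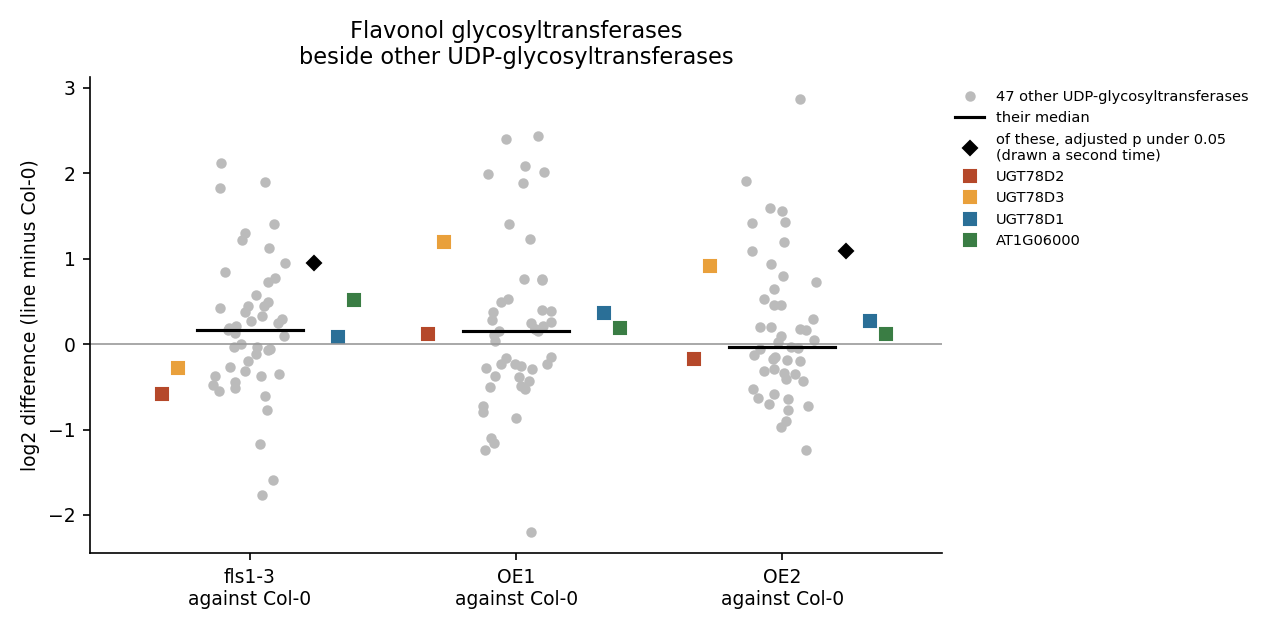
Log2 differences from Col-0 in fls1-3, OE1 and OE2 (vertical axis) of the 4 flavonol glycosyltransferase genes (squares) and of 47 other UDP-glycosyltransferase genes (grey points, spread sideways for sight, with their median as a line). The black diamond is UGT85A2 where it passed, at 0.95 in fls1-3 and 1.09 in OE2.

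Genes whose signal over the 12 arrays was most like that of each flavonol glycosyltransferase were listed among 5945 other probe sets (5946 for UGT78D3) that name 1 gene and have at least median mean signal. For UGT78D1 these were AT1G07830, PHV, a transcription factor gene of leaf polarity, and AT5G51980, with Pearson correlations of 0.94, 0.92 and 0.90 across arrays. For UGT78D2 they were AT2G27060, AT4G08240 and AT3G25805, at 0.91, 0.89 and 0.88. For AT1G06000 they were AT3G13650, AT3G03320 and AT2G17990, at 0.92, 0.91 and 0.90. For UGT78D3 they were AT4G15520, TBL18 and AT1G09010, at 0.82, 0.77 and 0.77. None of these is a flavonol glycosyltransferase gene of the 4: UGT78D1 ranked 64 in likeness to AT1G06000, at 0.76, AT1G06000 ranked 312 in likeness to UGT78D1, and UGT78D2 ranked 2476 in likeness to UGT78D1, at 0.26.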

How the data were processed

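Leaf RNA for 12 arrays was labelled with biotin, 6 µg a sample, per the labels' protocols. The authors deposited log2 MAS5 signals of 22810 probe sets. MAS5 is named in the submitters' processing notes, with a version not given in the sources used here. The log2 scale is read from the values, whose linear 2% trimmed mean was close to 500.05 on each array. They entered the fit as deposited, with no filter and without 64 control probe sets. Signals near the floor are unstable on this scale. Genes were named from a platform table of 2016 and RefSeq names of TAIR10.1: 13513 probe sets name 1 gene, 503 several and 8730 none.

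Groups follow the titles. Linear models (limma 3.58.1, R 4.3.3) were fitted to all 12 arrays with 8 residual degrees of freedom and an intensity trend. In 10 simulations with known changes, the comparisons of the 3 lines with Col-0 recovered 19.5% to 21.3% of changes of 1 log2 unit. For changes of 2 log2 units the share was 46.3% to 52.5%, so a change of either size can go uncalled. The changed probe sets were drawn at random from all signal levels, and the simulated arrays varied independently, without a shared shift of the array median. P-values were adjusted by Benjamini-Hochberg over 22746 probe sets per comparison, at a threshold of 0.05. No arrays held equal values, and arrays of a group correlated at 0.907 to 0.935 across probe sets. Arrays of different groups correlated at 0.885 to 0.937.

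The genes and lists were chosen with earlier results of these data known. By rule the text names the 4 genes, list genes that passed or had the 2 smallest p for any difference in their list, and the 3 genes most like each of the 4. DFR and UGT79B1 are named as the rest of their list, and AT5G17040 and UGT79B6 were chosen after their values were seen. The comparison of the 4 genes with the anthocyanin branch from array to array was also chosen after the values were seen. Alternatives were array quality weights, the array median as covariate, the replicate number as block, quantile normalization, median-centred arrays, pseudocounts of 16 and 64 on the linear signal, a filter at the 40th percentile, fits of the compared groups alone, fits with no trend, and leaving out each array.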

Additional observations from a re-analysis of the deposited data

How the results depend on the processing

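In fls1-3, OE1 and OE2 against Col-0, in fls1-3 against OE2 and in OE1 against OE2, the count of the 4 genes past the threshold was 0 under each of 22 alternatives. In fls1-3 against OE1 it was 1 with array quality weights (UGT78D2) and 1 with the array median in the model (AT1G06000). For any difference among the genotypes it was 1 with array quality weights. The counts over all probe sets moved far more: between 31 and 1032 in fls1-3 against Col-0, around a main count of 272, between 0 and 22 around 0 in OE1, between 66 and 671 around 225 in OE2, between 17 and 3783 around 126 in fls1-3 against OE1, between 1 and 117 around 5 in fls1-3 against OE2, between 4 and 532 around 6 in OE1 against OE2, and between 54 and 2567 around 235 for any difference. With a replicate block the count of the 4 genes was 0 in each comparison, UGT78D2 in fls1-3 against Col-0 had an adjusted p of 0.302, and over all probe sets the count was 1 in OE1 against Col-0, 3 in fls1-3 against OE2 and 13 in OE1 against OE2. No clear pairing by number was seen: deviations of same-numbered arrays correlated over 0.1 in 5 of 18 pairs, against 15 of 36 pairs of different number. The median correlations were 0.042 and 0.014, and 6 of the 12 arrays correlated best with their own number. These pairs are too few to exclude a batch shared by replicate number. Leaving out 1 array changed no call of the 4 genes. The filter at the 40th percentile removed UGT78D3, so that setting gives no value for it. UGT78D3 lay below the array median on 12 of 12 arrays, which limits what its values can show. The number of arrays, 3 a genotype, limits the precision of all 4 genes.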

Other observations

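AT5G17040, which lies between UGT78D3 and UGT78D2, had weak signals too, with mean log2 values of 2.93 in fls1-3, 3.05 in OE1, 4.06 in OE2 and 2.21 in Col-0. Its difference from Col-0 in OE2 was 1.85 ± 1.03 (SE; limma adjusted p = 0.534), with all 3 OE2 arrays above all 3 Col-0 arrays, as in 10.6% of probe sets. UGT79B6, whose enzyme adds a further sugar to flavonol glycosides in pollen, had mean log2 values of 2.89 in fls1-3, 4.70 in OE1, 3.81 in OE2 and 2.61 in Col-0, and did not pass in any of the 6 comparisons. These 2 genes were chosen after their values were seen.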
